A study of Homo sapiens with 8 samples.

Results

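The subject is the alpha and beta tubulin genes of human lung cancer cells given extra miR-29a-3p. They are 10 of the 31461 genes in the deposited table, 4 alpha (TUBA1A, TUBA1B, TUBA1C, TUBA4A) and 6 beta (TUBB, TUBB2A, TUBB2B, TUBB3, TUBB4B, TUBB6), and all 10 passed the filter of at least 1 FPKM in at least 2 libraries. FPKM counts fragments relative to transcript length and to the mapped total of the library. The family was chosen by a measured value, since TUBA1A was lower after miR-29a-3p in the libraries labelled A549, so every value of that contrast is given as a description and supports nothing. RNA sequencing covered 8 bulk libraries in 4 groups of 2, which were A549 and H1299, each given a control or overexpressing miR-29a-3p. The labels give the genotype of all of them as WT and do not say whether 2 libraries of a group came from separate cultures. The study sought genes that miR-29a-3p may target.

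Alpha and beta tubulin form the dimers that polymerise into microtubules, the filaments of the mitotic spindle and of intracellular transport. Vertebrates have several genes of each kind, called isotypes, whose proteins differ mainly in the tail. Cells also adjust tubulin mRNA to the amount of free dimer: TTC5 recognises tubulin as it leaves the ribosome and, with SCAPER and the CCR4-NOT complex, has its mRNA degraded. MicroRNAs of the miR-29 family are known for repressing collagens and other matrix genes by pairing their seed, bases 2 to 8, with sites in the 3′ UTR of an mRNA.

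The sequences on which the comparison of the isotypes turns are the microRNA seed and the tubulin sites that can pair with it. The mature miR-29 microRNAs share one seed (capitals, 5′ to 3′, RefSeq, GRCh38.p14):
hsa-miR-29a-3p: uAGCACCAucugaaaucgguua
hsa-miR-29b-3p: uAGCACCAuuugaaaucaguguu
hsa-miR-29c-3p: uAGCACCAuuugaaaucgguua

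For each gene the protein-coding GENCODE 29 transcript with the longest 3′ UTR was searched in that UTR on the mRNA strand for TGGTGCTA (8mer), TGGTGCT (7mer-m8) and GGTGCTA (7mer-A1). Both 7-letter matches lie within the 8mer, so a gene was placed by its longest match. Of the 10 tubulins, 2 held one of these matches, a 7mer-m8 in each. The letters below are the mRNA strand on GRCh38, with the matched letters in capitals:
TUBB2A: gtctttctacttgtaaactaTGGTGCTcag
TUBB2B: ttaggtgtgcgctgggtctcTGGTGCTctt

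The TUBB2A stretch lies at chr6:3153778-3153807 on the minus strand, and its match begins at base 76 of a 3′ UTR of 194 bases. That of TUBB2B, at chr6:3224616-3224645 on the minus strand, has its match at base 126 of 490. The other 8 genes held none of the 3 matches in any annotated protein-coding transcript. Over the 11632 tested genes with a 3′ UTR, 3.45% had an 8mer as their longest match, 13.0% a 7mer-m8 and 3.01% a 7mer-A1, and 80.6% had none of these. A match is a description of the letters and not a measured site.

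A short statement on the libraries is needed before the values. Estimated depth was 12219096 to 15626997 fragments, and libraries of a group differed by a median of 0.079 to 0.088 on the log2 scale. Genes known to be high in A549 went against the labels: 7 of 8 were higher in the controls labelled H1299, where their summed level was 1221 to 1254 FPKM against 197 to 207 FPKM in the controls labelled A549. CDKN2A, which A549 is known to lack, stood at 23.8 and 24.8 FPKM in the controls labelled A549 and at 0.051 and 0.112 FPKM in those labelled H1299. The lines are therefore called by their labels throughout, and "labelled A549" is not a statement that the cells were A549. Summed leukocyte and endothelial markers were at most 0.552 and 0.413 FPKM in the control libraries, with every gene of both lists under 1 FPKM in all 8 libraries. Of 5 fibroblast markers, COL1A1 and LUM reached 1 FPKM in some library, and the 5 summed to 0.335 to 0.451 FPKM in the controls labelled A549 and 2.20 to 2.30 FPKM in those labelled H1299. In bulk RNA a lower value in each cell and fewer cells with the transcript cannot be told apart.

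Because tubulins are so alike, how much of each transcript is its own bears on every value below. On GRCh38 the TUBA1 genes lie together on chromosome 12, TUBA1B at chr12:49127782-49131397 and TUBA1A at chr12:49184796-49189324 on the minus strand and TUBA1C at chr12:49188736-49274603 on the plus strand. TUBB2A (chr6:3153669-3157526) and TUBB2B (chr6:3224261-3231730) are neighbours on the minus strand of chromosome 6. Aligned coding sequences of TUBA1A, TUBA1B and TUBA1C were 97.2% (TUBA1A with TUBA1B), 96.3% (TUBA1A with TUBA1C) and 97.3% (TUBA1B with TUBA1C) identical in bases. TUBA4A was 85.0% to 86.3% identical to them. Among the beta genes TUBB2A and TUBB2B were 98.1% identical, and the other pairs ran from 81.3% to 88.7%. Alpha and beta genes were 54.7% to 56.8% identical to each other. The main transcript of a gene is here the protein-coding one with the longest coding part. For TUBA1C, TUBB3 and TUBB6 it is not the transcript searched for seed matches. That of TUBA1C has a 3′ UTR of 107 bases, against 1376 in the transcript searched. Of all 100-base windows of the main transcript, 73.4% of those of TUBA1A occurred in no other GENCODE 29 gene on either strand, and every such window within its 3′ UTR was its own. That share was 28.9% for TUBA1B, 46.2% for TUBA1C and 72.6% for TUBA4A. For the beta genes it was 79.6% for TUBB, 43.6% for TUBB2A, 53.8% for TUBB2B, 11.0% for TUBB3, 95.5% for TUBB4B and 100% for TUBB6. TUBB2A shared 54.4% of its windows with TUBB2B, so those 2 values are uncertain if the counting split reads between copies.

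**Figure D1:**
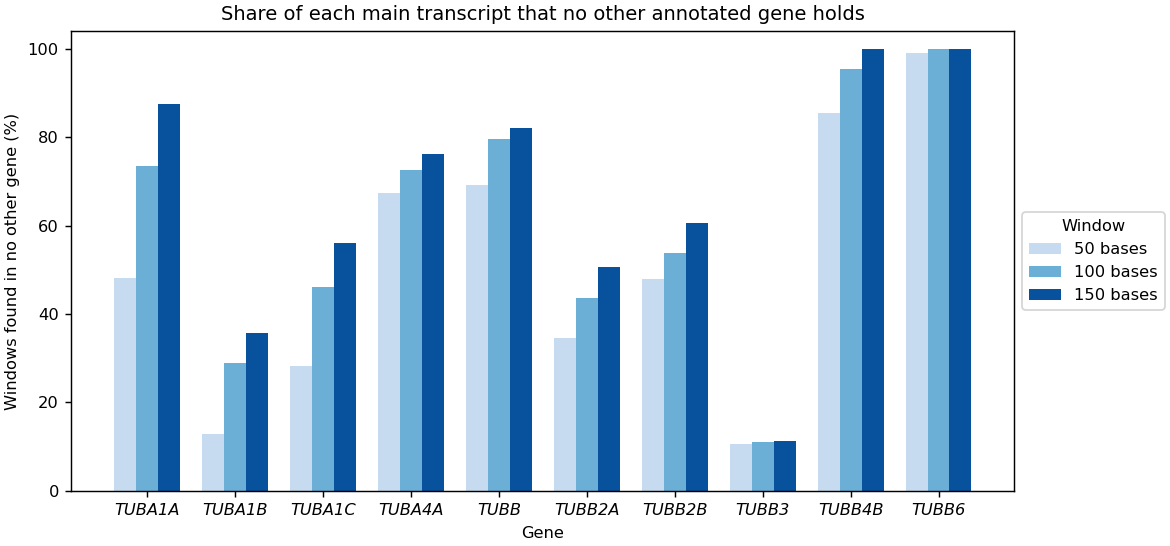
Share of windows of 50, 100 and 150 bases (bars) of each tubulin's main transcript that occurred in no other annotated gene, in percent, by gene. With 100-base windows TUBB6 and TUBB4B reached 100% and 95.5%, while TUBB3 had 11.0% and TUBA1B 28.9%.

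Some of that sharing was with a gene at the same place. TUBA1A and TUBA1C overlap on opposite strands over 490 exonic bases, and TUBA1B overlaps the antisense gene AC011603.2 over 1309. Also on opposite strands, TUBB6 overlaps AFG3L2 over 837 bases, TUBA1C overlaps AC125611.3 over 666 and TUBA4A overlaps STK16 over 627. Whether counting used the strand is not given in the sources used here, so reads of such pairs may not be separable. AC011603.2 and AC125611.3 were at most 0.163 and 0.119 FPKM in any library. STK16 was at 3.24 and 3.32 FPKM in the controls labelled A549, above TUBA4A at 1.31 and 2.15 FPKM. AFG3L2 was at 10.5 and 11.0 FPKM in the controls labelled H1299, above TUBB6 at 2.78 and 3.28 FPKM. In the controls of the other line each of them was below its tubulin. Their part in the tubulin values was not tested. TUBB3 shares 1584 exonic bases on the same strand with AC092143.1, another protein-coding gene model, which is taken up with TUBB3 below.

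In the controls the tubulins were far more abundant in the libraries labelled A549. Summed alpha tubulin was 640 ± 23.8 FPKM there (SD, n = 2) and 135 ± 9.01 FPKM in those labelled H1299, a 4.75-fold difference, and summed beta tubulin was 1188 ± 32.4 and 207 ± 3.60 FPKM, a 5.73-fold difference. Of the 9 genes tested (TUBA1A is described only, since its controls entered the choice), 8 were higher labelled A549 and 1, TUBA4A, was lower (limma, adjusted p under 0.05). Of all 14635 genes tested, 45.0% were called higher and 29.8% lower in this comparison. The median log2 difference was 2.22 over the 10 tubulins and 0.17 over all genes. That median over all genes was 0.0033 after the libraries were rescaled by size factors, and all 8 genes remained called higher under that scaling.

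TUBB, the most abundant beta isotype of these cells, was at 743 and 723 FPKM in the controls labelled A549 and 145 and 141 FPKM in those labelled H1299. Its log2 difference was 2.35 ± 0.037 (SE, limma adjusted p = 6.6e-08). TUBB4B, a widely expressed beta isotype, was at 388 and 370 FPKM against 52.3 and 52.7 FPKM. Its log2 difference of 2.83 ± 0.047 (limma adjusted p = 7.2e-08) was the largest among the 10 on the log2(FPKM + 1) scale. As a ratio of mean FPKM it was 7.23-fold, less than TUBB2A at 7.80-fold and TUBA4A, which was 8.25-fold the other way. TUBA1B, the most abundant alpha isotype, stood at 348 and 311 FPKM against 58.6 and 56.1 FPKM. TUBA1C was at 265 FPKM in both controls labelled A549 and at 53.1 and 51.6 FPKM in those labelled H1299. TUBA1A, best known from neurons, was at 42.5 and 45.0 FPKM against 10.6 and 11.1 FPKM. The controls of the lines did not overlap in TUBB, TUBB4B, TUBA1B, TUBA1C or TUBA1A. The share of all genes without such overlap was not worked out, so nothing is read from this.

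The order of the isotypes differed between the lines. In the controls labelled A549 mean levels ran TUBB, TUBB4B, TUBA1B, TUBA1C, TUBA1A, TUBB2A, TUBB6, TUBB3, TUBB2B and TUBA4A, and no 2 neighbours overlapped in their library values. In the controls labelled H1299 they ran TUBB, TUBA1B, TUBB4B, TUBA1C, TUBA4A, TUBA1A, TUBB2A, TUBB6, TUBB3 and TUBB2B. There TUBB4B and TUBA1C could not be told apart by their values, nor TUBA4A and TUBA1A, nor TUBB6 and TUBB3. TUBA4A, an alpha isotype coded without the usual final tyrosine, was last in one line and mid-way in the other. Its levels were 1.31 and 2.15 FPKM labelled A549 and 18.8 and 9.71 FPKM labelled H1299, so it was 8.25-fold lower labelled A549 (log2 difference -2.43 ± 0.31, adjusted p = 0.00038). It made up 0.27% of alpha tubulin FPKM in one and 10.4% in the other.

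The less abundant beta genes followed the abundant ones in direction. TUBB2A was at 38.6 and 36.3 FPKM against 4.79 and 4.82 FPKM, and TUBB2B at 10.3 and 9.04 FPKM against 1.45 and 1.47 FPKM. TUBB6 was at 16.8 and 15.2 FPKM against 2.78 and 3.28 FPKM. TUBB3, the isotype used as a marker of neurons, was at 14.1 and 11.2 FPKM against 3.47 and 1.50 FPKM. The TUBB3 call (adjusted p = 0.022) was lost without the control replicate 1 labelled A549 (0.093), without replicate 2 of that group (0.060), without the control replicate 2 labelled H1299 (0.11) and with no filter on low values (0.055). Markers of neurons summed to 11.2 to 12.4 FPKM in the controls labelled A549 and 43.5 to 44.0 FPKM in those labelled H1299, with RBFOX3, SNAP25, SYT1 and NEFL of the 5 reaching 1 FPKM in some library, and their part in the TUBB3 values was not tested.

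**Figure D2:**
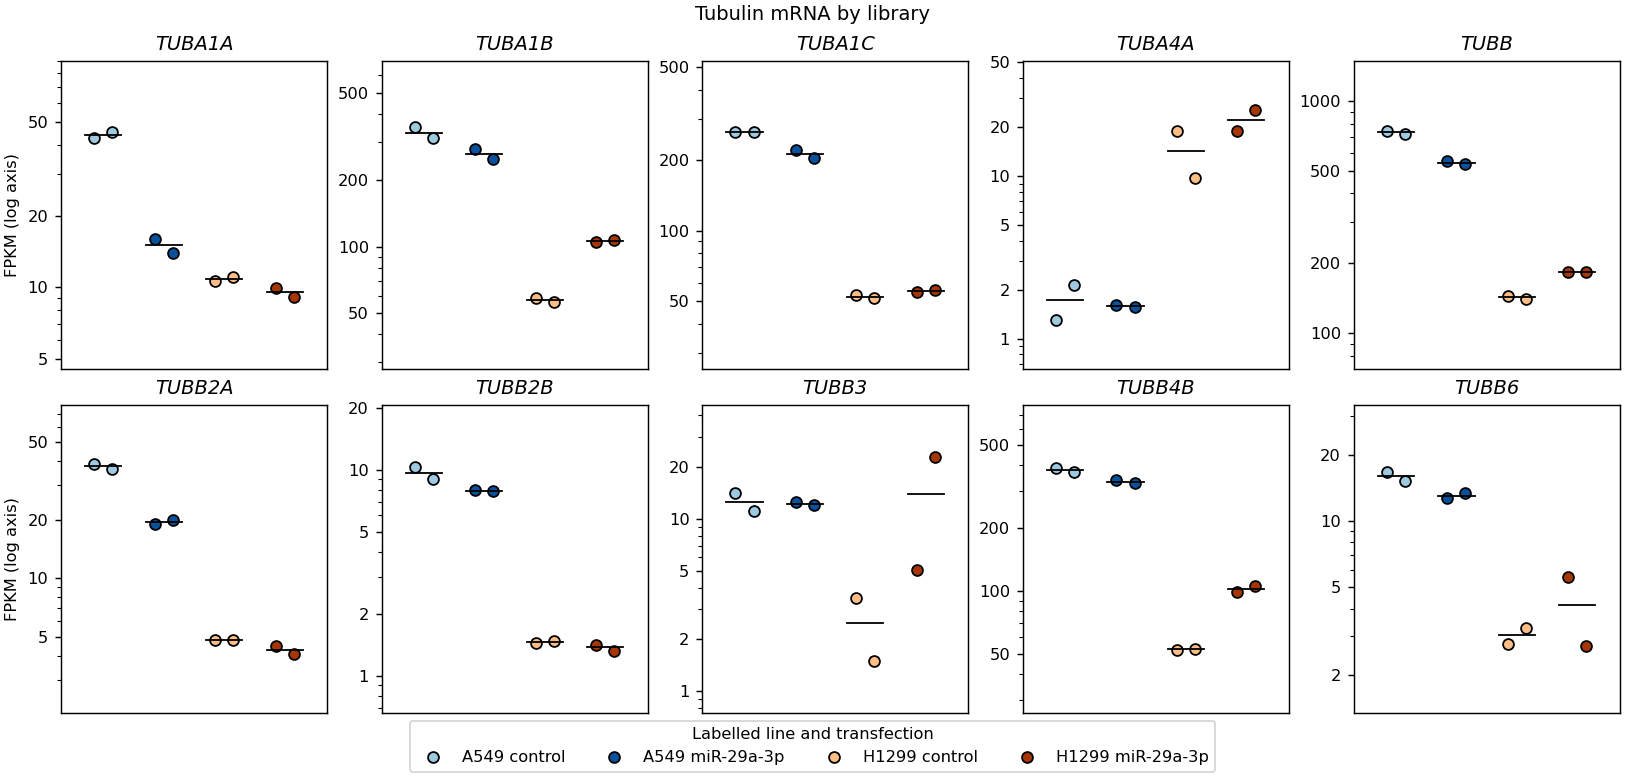
FPKM of each tubulin gene in each of the 8 libraries (points, log axis, a scale of its own in each panel), with the mean of the 2 libraries of a group as a line. Only TUBA4A was lower in the controls labelled A549 than in those labelled H1299, and TUBB3 spread from 5.03 to 22.9 FPKM in the treated libraries labelled H1299.

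In the libraries labelled A549 both treated values lay below both controls for 8 of the 10 tubulins and above them for none. Over all genes tested the shares were 29.2% and 29.8%, and since this contrast chose the family nothing is read from the count. Values of the 10 were lower by a median log2 fold change of -0.29, against 0.0014 over all genes. Summed alpha tubulin was 494 ± 33.0 FPKM after treatment and summed beta tubulin 930 ± 21.3 FPKM, 0.772 and 0.783 of the controls.

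TUBA1A, the gene that led to the choice, went from 42.5 and 45.0 FPKM to 16.0 and 14.0 FPKM, 2.91-fold lower, with a log2 fold change of -1.48 ± 0.078 (SE). TUBB2A was next, from 38.6 and 36.3 to 18.9 and 19.9 FPKM, 1.93-fold lower, or -0.91 ± 0.060. Both sets of libraries stood well apart. The remaining differences were smaller: TUBB went from 743 and 723 to 552 and 534 FPKM (-0.43 ± 0.037), TUBA1B from 348 and 311 to 278 and 250 FPKM (-0.32 ± 0.073), and TUBA1C from 265 in both to 222 and 206 FPKM (-0.31 ± 0.046).

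TUBB6 went from 16.8 and 15.2 to 12.7 and 13.4 FPKM (-0.27 ± 0.25), TUBB2B from 10.3 and 9.04 to 7.95 and 7.84 FPKM (-0.26 ± 0.070), and TUBB4B from 388 and 370 to 341 and 327 FPKM (-0.18 ± 0.047). TUBA4A and TUBB3 overlapped between the groups. Treated TUBA4A was at 1.60 and 1.56 FPKM and treated TUBB3 at 12.6 and 12.0 FPKM, with log2 fold changes of -0.06 ± 0.31 and -0.03 ± 0.61. The values of TUBA1A thus differed from those of its near copies: at 97.2% and 96.3% identity of the coding sequence, TUBA1B and TUBA1C were 1.25-fold and 1.24-fold lower where TUBA1A was 2.91-fold lower. TUBB2A and TUBB2B, the most alike pair, were 1.93-fold and 1.22-fold lower.

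In the libraries labelled H1299, which the choice did not use, the direction differed between tubulins. Of the 10, 4 rose (TUBA1B, TUBB, TUBB3 and TUBB4B, limma, adjusted p under 0.05) where 25.1% of all genes tested did. The TUBB3 call did not hold in every alternative run, as given below, and nothing is read from the count. None of 10 fell, where 24.8% of all genes were called lower at adjusted p under 0.05. None fell at an unadjusted p under 0.05 either, for which no share over all genes is given. The median log2 fold change was 0.33 over the tubulins and 0.0012 over all genes. Of the 10, 7 were above 0 and 3 below (TUBA1A, TUBB2A and TUBB2B). Summed alpha tubulin went from 135 ± 9.01 to 193 ± 5.99 FPKM, 1.43-fold, and summed beta tubulin from 207 ± 3.60 to 309 ± 13.8 FPKM, 1.49-fold. Some marker sums were also higher in these treated libraries: 3.42 to 3.50 FPKM for fibroblasts and 0.968 to 0.996 FPKM against 0.498 to 0.552 FPKM for leukocytes. The genes known to be high in A549 summed to 2609 to 2677 FPKM against 1221 to 1254 FPKM. The neuron sum was lower, at 38.3 FPKM in both treated libraries against 43.5 to 44.0 FPKM. Endothelial markers (0.227 to 0.256 against 0.208 to 0.297 FPKM) and CDKN2A (0.066 to 0.081 against 0.051 to 0.112 FPKM) overlapped. The part of any of these markers in the tubulin values was not tested.

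TUBB4B rose the most among the genes with close replicates, from 52.3 and 52.7 to 99.1 and 105 FPKM (log2 fold change 0.95 ± 0.047, adjusted p = 2.9e-05). TUBA1B rose from 58.6 and 56.1 to 105 and 107 FPKM (0.88 ± 0.073, adjusted p = 0.00018). TUBB rose from 145 and 141 to 184 and 183 FPKM (0.35 ± 0.037, adjusted p = 0.00042). In TUBB4B, TUBA1B and TUBB both treated libraries lay above both controls, for which no share over all genes was worked out. The calls of these 3 genes held under every alternative run.

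TUBB3 was also called, from 3.47 and 1.50 to 5.03 and 22.9 FPKM (1.85 ± 0.61, adjusted p = 0.045), but its treated replicate 1 lay closer to the controls than to the treated replicate 2. Without the treated replicate 2 its log2 fold change was 0.85 (adjusted p = 0.10), and without the treated replicate 1 it was 2.84 (0.0026). Leaving out any other single library also ended the call, with adjusted p from 0.064 to 0.19, as did the replicate block (0.067), no filter on low values (0.11) and the H1299-labelled libraries fitted alone (0.10). AC092143.1, the gene model that shares exons with TUBB3, was listed at 0 in each of the controls, with values of 6.38 and 4.04 FPKM in the treated libraries of this line. The sum of both was 3.47 and 1.50 FPKM in the controls and 11.4 and 27.0 FPKM after treatment. In the libraries labelled A549 AC092143.1 was at 14.7 and 11.8 FPKM in controls and 21.6 and 17.8 FPKM after treatment. There the sum of both was 28.8 and 22.9 FPKM in controls and 34.2 and 29.8 FPKM after treatment. That sum was thus higher after treatment, while TUBB3 alone overlapped between the groups. How reads were divided between the 2 models was not tested.

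The remaining 6 genes did not pass the test in this line. TUBA1A was at 10.6 and 11.1 FPKM in controls and 9.98 and 9.10 FPKM after treatment, a log2 fold change of -0.17 (95% interval -0.36 to 0.02, adjusted p = 0.12). TUBB2A was at 4.79 and 4.82 against 4.48 and 4.08 FPKM, -0.14 (-0.28 to 0.0068, adjusted p = 0.10). Both genes had their treated values below the controls without overlap, by far less than the differences seen labelled A549. TUBB2B was at 1.45 and 1.47 against 1.42 and 1.33 FPKM, -0.05 (-0.22 to 0.12, adjusted p = 0.58), from an estimated 39 to 50 fragments a library. TUBA1C was at 53.1 and 51.6 against 54.9 and 55.6 FPKM, 0.08 (-0.03 to 0.19, adjusted p = 0.22).

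TUBA4A and TUBB6 were set by single libraries. TUBA4A was at 18.8 and 9.71 FPKM in controls and 18.9 and 25.5 FPKM after treatment (0.65, interval -0.08 to 1.39, adjusted p = 0.12), and without the control replicate 1 its value was 1.10 (adjusted p = 0.017). Without the control replicate 2 it was 0.21 (0.53). TUBB6 was at 2.78 and 3.28 against 5.59 and 2.71 FPKM (0.30, interval -0.30 to 0.89, adjusted p = 0.36). Its value was 0.71 without the treated replicate 2 (adjusted p = 0.0049) and -0.12 without the treated replicate 1 (0.42).

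**Figure D3:**
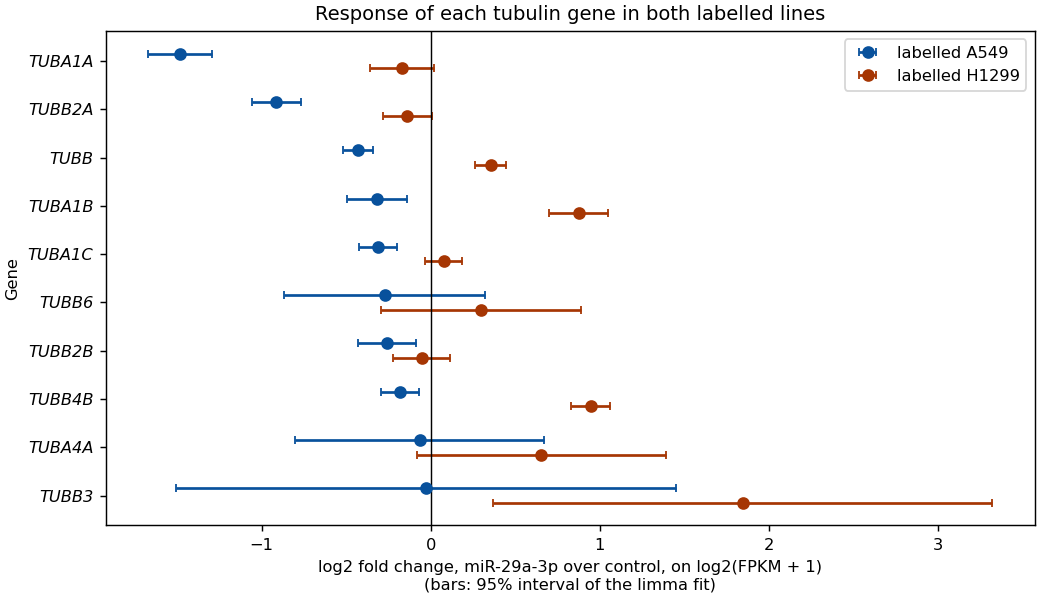
Log2 fold change of each tubulin gene, miR-29a-3p over control on the log2(FPKM + 1) scale, in the libraries labelled A549 and labelled H1299, with 95% intervals of the limma fit as bars. TUBA1A was lowest labelled A549 at -1.48, while TUBB4B and TUBA1B stood at 0.95 and 0.88 labelled H1299.

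Side by side, the response labelled A549 minus that labelled H1299 was below 0 for all 10 genes, with a median of -0.78 over them and 0.0041 over all genes. It was -1.31 ± 0.11 (SE) for TUBA1A, -1.19 ± 0.10 for TUBA1B, -1.13 ± 0.066 for TUBB4B, -0.79 ± 0.052 for TUBB, -0.78 ± 0.085 for TUBB2A and -0.39 ± 0.065 for TUBA1C. For the other 4 genes it was -1.87 ± 0.87 (TUBB3), -0.72 ± 0.43 (TUBA4A), -0.57 ± 0.35 (TUBB6) and -0.21 ± 0.099 (TUBB2B). In 4 of the 10 (TUBA1B, TUBA1C, TUBB and TUBB4B) both treated libraries were below both controls labelled A549 and above both labelled H1299, as in 9.91% of all genes tested, and nothing is read from that count. These differences hold the contrast that chose the family and are given without a test. For TUBA1A and TUBB2A the difference came mainly from lower values labelled A549, and for TUBA1B and TUBB4B mainly from higher values labelled H1299.

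The make-up of each class differed between treated and control libraries in both lines. TUBA1A was 6.85% ± 0.53 (SD, n = 2) of alpha tubulin FPKM in controls labelled A549 and 3.04% ± 0.083 after treatment, and in libraries labelled H1299 it was 8.07% ± 0.79 and 4.95% ± 0.47. TUBA1B made up 42.6% ± 1.50 of alpha tubulin in controls labelled H1299 and 55.0% ± 0.98 after treatment, and TUBA1C made up 38.9% ± 1.79 and 28.6% ± 0.61. Labelled A549 the shares of TUBA1B were 51.4% ± 2.12 and 53.4% ± 0.52, closer to each other.

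Among beta tubulins the share of TUBB4B was larger after treatment in both lines, at 31.9% ± 0.19 and then 35.9% ± 0.21 labelled A549 and at 25.3% ± 0.59 and then 33.0% ± 0.11 labelled H1299. That of TUBB was smaller in both, going from 61.7% ± 0.49 to 58.4% ± 0.0067 and from 69.0% ± 0.21 to 59.3% ± 2.88. TUBB2A also had a smaller share in both, going from 3.15% ± 0.050 to 2.09% ± 0.13 and from 2.32% ± 0.050 to 1.39% ± 0.15. The library values of these shares did not overlap between treated and control. With 2 libraries a group no share was tested. The ratio of summed beta to summed alpha FPKM was 1.86 ± 0.018 and 1.88 ± 0.083 labelled A549 and 1.54 ± 0.076 and 1.60 ± 0.022 labelled H1299, in controls and after treatment, which differ by no more than the larger spread in each line.

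**Figure D4:**
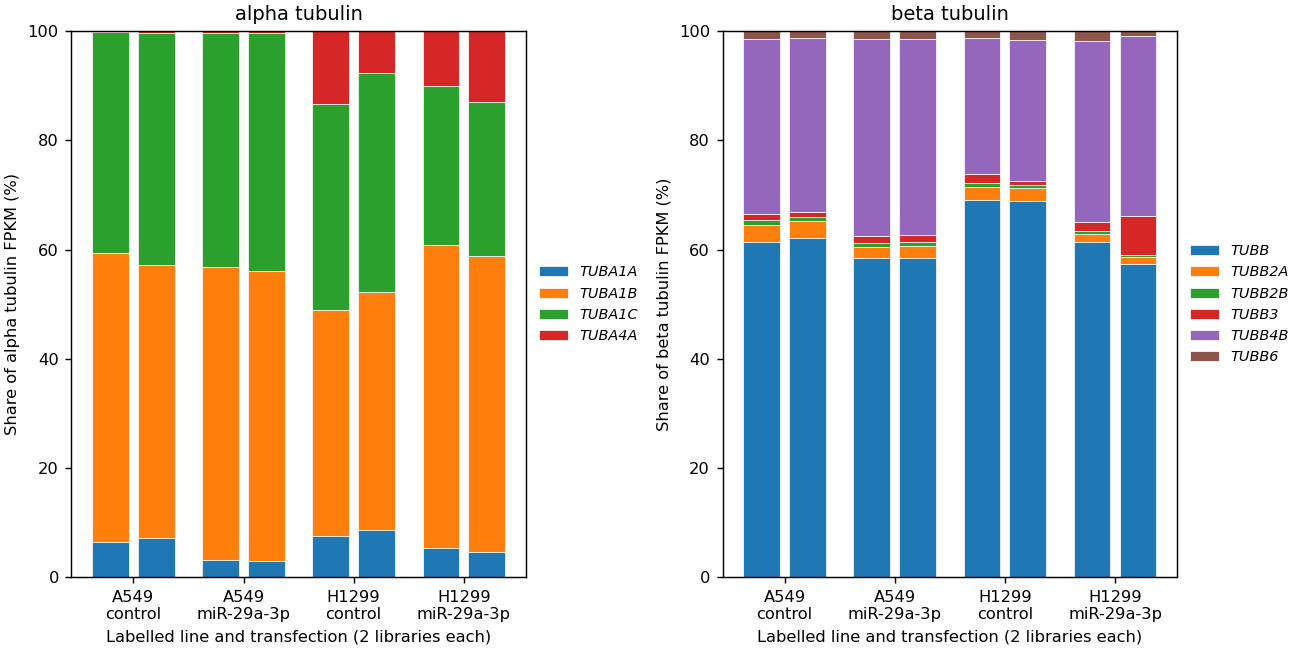
Share of each gene in the summed FPKM of the 4 alpha (left) and 6 beta (right) tubulins, in percent, with 1 stacked bar per library. TUBA1A held 6.85% of alpha tubulin in the controls labelled A549 and 3.04% after treatment, and TUBA4A held 10.4% in controls labelled H1299.

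Set by seed match, TUBB2A and TUBB2B, with a 7mer-m8, had A549-labelled log2 fold changes of -0.91 and -0.26, and the other 8 genes ran from -1.48 to -0.03. Labelled H1299 they had -0.14 and -0.05, and the others ran from -0.17 to 1.85. The low end of the range without a 7mer-m8 is TUBA1A in both lines. Without it the other 7 ran from -0.43 to -0.03 labelled A549, above TUBB2A, and from 0.08 to 1.85 labelled H1299, above both TUBB2A and TUBB2B. With 2 genes against 8 nothing is read from this order. Over all tested genes the median log2 fold change was -0.085 labelled A549 and -0.11 labelled H1299 for a 7mer-m8, and 0.011 and 0.030 for genes with none of the 3 matches. Genes of these classes also differ in the median length of the 3′ UTR, which was 2828 bases with a 7mer-m8 and 1117 bases with none of them, and the part of length was not tested.

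**Figure D5:**
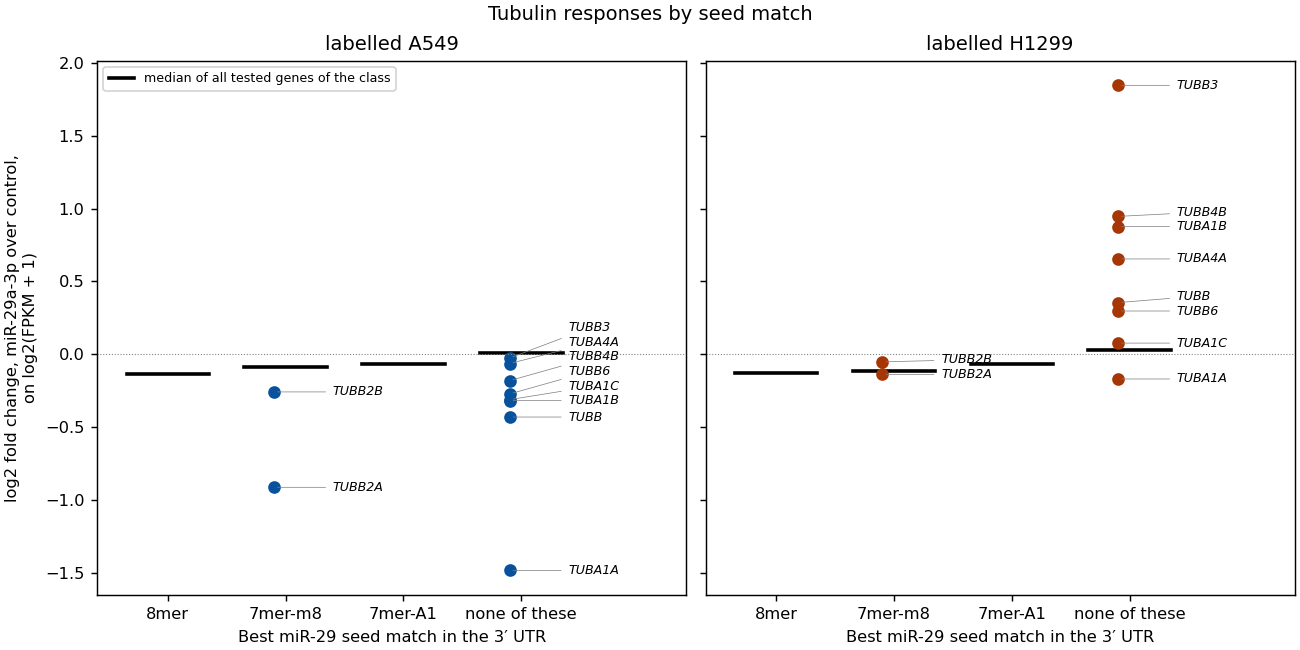
Log2 fold change (log2(FPKM + 1) scale) of each tubulin gene (points) by the longest miR-29 seed match of 7 or 8 letters in its 3′ UTR, labelled A549 on the left and labelled H1299 on the right, with the median of all tested genes of each class as a bar. TUBB2A and TUBB2B, with a 7mer-m8, stand at -0.91 and -0.26 labelled A549, and TUBA1A, without one, at -1.48.

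Of 12 other tubulin genes listed, 10 were in the table and 5 were tested, and the remaining 5 of those 10 (TUBA3E, TUBA8, TUBAL3, TUBB1 and TUBB8) were under 1 FPKM in every library. Labelled H1299, 3 rose and 1 fell, where 25.1% and 24.8% of all genes were called higher and lower. Those 3 were TUBG1, TUBG2 (0.17, limma adjusted p = 0.049) and TUBB4A, which had to differ, as given below. Nothing is read from that count. Labelled A549 none rose and 1 fell, where 7.30% and 8.66% of all genes were called higher and lower. At an unadjusted p under 0.05, for which no share over all genes is given, 1 was higher and 3 lower. Labelled H1299, fewer genes of the list were called higher when either treated library of that line was left out. TUBG1, the gamma tubulin that nucleates microtubules, rose from 19.8 and 18.3 to 31.2 and 31.7 FPKM labelled H1299 (log2 fold change 0.70, limma adjusted p = 0.00025). TUBB4A, a brain beta isotype, rose there from 0.137 and 0.123 to 1.04 and 1.13 FPKM (0.88, adjusted p = 0.00017). It was under 1 FPKM in the other 6 libraries (0.123 to 0.543), so it passed the filter only through those treated libraries and had to differ, and its call supports nothing. TUBE1, the centriolar epsilon tubulin, fell from 2.26 and 2.44 to 0.903 and 0.892 FPKM (-0.82, adjusted p = 0.00014). TUBD1, delta tubulin, fell labelled A549 from 1.56 and 1.87 to 0.812 and 1.07 FPKM (-0.48, limma adjusted p = 0.020). That call held in 9 of 13 alternative runs. Among others, it was lost without the control replicate 2 or the treated replicate 1 of that line.

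Genes that fold tubulin and join it into dimers were mixed. Of 21 tested, 7 rose and 5 fell labelled H1299, where 25.1% and 24.8% of all genes tested were called higher and lower. Labelled A549 none rose and 2 fell, where those shares were 7.30% and 8.66%. At an unadjusted p under 0.05, for which no share over all genes is given, 0 were higher and 5 lower there. Median log2 fold changes of the list were 0.10 labelled H1299 and 0.0053 labelled A549. PFDN2, a subunit of the prefoldin chaperone, fell from 165 and 157 to 74.3 and 72.6 FPKM labelled H1299 (-1.12, adjusted p = 1.6e-05). TBCB and TBCD, cofactors of tubulin folding, rose there from 10.1 to 17.8 and from 2.15 to 3.97 mean FPKM (0.76 and 0.66, adjusted p = 0.00054 and 0.00028). TBCEL fell there from a mean of 2.45 to 1.15 FPKM (-0.69, adjusted p = 0.00043). Labelled A549 TBCEL fell from 2.31 to 1.58 FPKM (-0.36, adjusted p = 0.022) and CCT2, a subunit of the TRiC chaperonin, from 48.4 to 40.5 FPKM (-0.25, 0.022), and both calls were lost without single libraries of that line (adjusted p up to 0.094 and 0.10).

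Of the 4 genes of tubulin mRNA autoregulation, 1 fell labelled A549 and 2 fell labelled H1299. None rose in either, also at an unadjusted p under 0.05 in limma. Of all genes tested, 8.66% were called lower labelled A549 and 24.8% labelled H1299, and 7.30% and 25.1% were called higher. TTC5 was at 1.72 and 1.82 FPKM in controls labelled A549 and 1.35 and 1.30 FPKM after treatment (-0.25, limma adjusted p = 0.039). This call was lost without any single library and held in 2 of 13 alternative runs. Labelled H1299 TTC5 was at 1.45 and 1.35 against 1.66 and 1.62 FPKM (0.14, adjusted p = 0.10). SCAPER fell labelled H1299 from a mean of 1.15 to 0.851 FPKM (-0.22, limma adjusted p = 0.037), a call that held in 4 of 13 alternative runs. It was lost without any of that line's libraries and with the replicate block (0.053), among others. CNOT1, the scaffold of CCR4-NOT, fell there from 23.5 to 16.6 FPKM (-0.48, adjusted p = 0.0012), and CNOT11, another subunit, was at 13.7 and 13.6 FPKM (-0.0049, adjusted p = 0.97). Labelled A549 SCAPER, CNOT1 and CNOT11 had log2 fold changes of 0.04, 0.12 and -0.05 with adjusted p from 0.24 to 0.75.

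Of 13 tested enzymes of tubulin modification, 3 rose and 2 fell labelled H1299, where 25.1% and 24.8% of all genes tested were called higher and lower. Labelled A549 limma called none, where those shares were 7.30% and 8.66%, and 2 were lower at an unadjusted p under 0.05. AGTPBP1, which trims glutamates from the tubulin tail, fell from 10.7 and 11.0 to 3.62 and 3.54 FPKM labelled H1299 (-1.37, adjusted p = 3.7e-05), and SIRT2, a tubulin deacetylase, from 5.47 and 5.25 to 2.42 and 2.50 FPKM (-0.88, adjusted p = 6.1e-05). SVBP, the partner of the vasohibins that remove the final tyrosine, rose from 1.67 and 1.34 to 2.57 and 3.10 FPKM (0.62, adjusted p = 0.0076), and AGBL5, a deglutamylase, from a mean of 5.50 to 7.99 FPKM (0.47, 0.00086). Of 12 nucleation genes 4 rose and 2 fell labelled H1299, against the same shares of all genes. Labelled A549 limma called none of them, with 2 lower at an unadjusted p under 0.05. NEDD1, which recruits the gamma tubulin ring, rose labelled H1299 from 4.62 to 6.57 FPKM (0.43, adjusted p = 0.0088). MZT2A (0.25, limma adjusted p = 0.045), AKAP9 (-0.22, 0.036) and TUBGCP3 (-0.26, 0.016) were called there as well. Each call was lost without single libraries of that line. MZT2A kept its call in 4 of 14 alternative runs, AKAP9 in 5 of 13 and TUBGCP3 in 11 of 13.

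Of 25 tested genes of microtubule binding and dynamics, the longest list, 4 rose and 9 fell labelled H1299, with a median of -0.098. Labelled A549 none rose and 5 fell, with a median of -0.10. At an unadjusted p under 0.05, for which no share over all genes is given, 1 was higher and 7 lower there. Labelled H1299, 25.1% of all genes were called higher and 24.8% lower, and this list as a whole was called about as often as that. Labelled A549 the shares over all genes at adjusted p under 0.05 were 7.30% and 8.66%. Without the control replicate 2 or the treated replicate 1 labelled A549, 0 fell there, and without the control replicate 1 only 1 did. Without the treated replicate 2 of that line, or without either treated library labelled H1299, 3 fell. STMN1 and STMN3 belong to the stathmins, which bind free tubulin dimers. STMN3 rose labelled H1299 from 1.44 and 1.24 to 5.28 and 5.26 FPKM (1.43, adjusted p = 2.6e-05), and STMN1 from 1.89 and 2.44 to 4.68 and 6.29 FPKM (1.03, adjusted p = 0.0011). Labelled A549 STMN3 fell from 7.11 and 6.50 to 5.36 and 5.27 FPKM (-0.31, limma adjusted p = 0.031). That call held in 4 of 13 alternative runs and was lost without any library of that line, among others. STMN1 was there at 19.9 and 21.8 against 20.8 and 20.6 FPKM (-0.01, adjusted p = 0.97). CAMSAP2, which caps minus ends, fell labelled H1299 from 11.3 and 12.3 to 6.22 and 6.05 FPKM (-0.84, adjusted p = 0.00012), and MAP7, a kinesin activator, from 16.5 and 16.9 to 9.52 and 9.50 FPKM (-0.75, adjusted p = 0.00016). KATNA1, the katanin severing subunit, fell labelled A549 from a mean of 9.66 to 7.12 FPKM (-0.39, adjusted p = 0.018), and KIF2C, a depolymerising kinesin, from 46.1 to 35.9 FPKM (-0.35, 0.020). Those 2 calls were lost without single libraries labelled A549 (adjusted p up to 0.091 and 0.096). KATNA1 also fell labelled H1299 (-0.58, adjusted p = 0.0010).

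The genes most like TUBA1A over the 8 libraries, by Pearson correlation of log2(FPKM + 1) among 3776 candidates, were RPA1 (0.994), PXDN (0.991), NID1 (0.988), TRAFD1 (0.987) and SLC18B1 (0.985). The correlations run over only 4 groups and are a description. NID1, a basement membrane protein, went from 8.88 and 9.35 to 2.80 and 2.63 FPKM labelled A549, and RPA1, a single-stranded DNA-binding protein, from 19.9 and 19.8 to 10.7 and 10.8 FPKM. Labelled H1299 RPA1 was at 9.09 and 8.30 against 8.32 and 7.76 FPKM. NID1 was at 1.36 and 1.35 against 1.69 and 1.62 FPKM there, higher after treatment, where TUBA1A was lower. No other tubulin was among the closest: TUBB2A had 0.908 and stood in place 80, TUBB had 0.838, TUBA1C 0.825 and TUBA1B 0.771. TUBB3 had 0.347, and TUBA4A, whose lines are in the reverse order, -0.746.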

How the data were processed

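The authors deposited FPKM values in 1 table with a column per library, per the file headers, for the 8 libraries mapped to 4 groups by their labels. StringTie and GRCh38 are named in the submitters' processing notes. Tool versions, the aligner, annotation release, strand setting and read length were not given in the sources used here. RNA was extracted with TRIzol, per the labels' protocols.

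The 14635 genes that reached 1 FPKM in 2 or more libraries were fitted with limma 3.58.1 (R 4.3.3) on log2(FPKM + 1), with 1 mean per group, a trended prior (2.36 prior and 4 residual degrees of freedom) and Benjamini-Hochberg adjustment, called at adjusted p under 0.05. Every adjusted p is limma's. Shares of all genes called are at adjusted p under 0.05 and are not a measure for counts at an unadjusted p. Fold changes on this scale understate those of low genes. The fit was tested on simulated data. P-values measure the spread between libraries, which may be technical. Fragment totals were estimated from the steps of low values. Of the low to moderate fragment counts then worked out for the genes, 33.6% to 42.6% came out whole within 0.02, so no count test was run. The length used was that of all exons of a gene together, so fragments given for a gene are approximate.

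The family and lists were chosen with earlier results of these data known. Named were every tubulin, the 2 lowest and 2 highest called genes of each list and line, the autoregulation genes, and the 5 genes nearest TUBA1A. Sequences are from GENCODE 29 and RefSeq (GRCh38.p14), and seed matches shorter than 7 letters are not reported here.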

Additional observations from a re-analysis of the deposited data

Results flagged for a closer look

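In 4 tubulins both treated libraries were lower than the controls labelled A549 and higher than those labelled H1299, as in 9.91% of all genes tested. The A549-labelled side of that count chose the family, and TUBA1C did not pass the test labelled H1299 (0.08, limma adjusted p = 0.22). The response labelled A549 minus that labelled H1299 was -1.19 on the log2 scale for TUBA1B, -1.13 for TUBB4B, -0.79 for TUBB and -0.39 for TUBA1C, and the difference was not tested in these genes, since it holds the contrast that chose the family.

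For STMN3, which binds free tubulin dimers, the response labelled A549 minus that labelled H1299 was -1.73 on the log2 scale (limma interaction, adjusted p = 0.00012). Mean FPKM went from 6.81 to 5.31 labelled A549 and from 1.34 to 5.27 labelled H1299.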

How the results depend on the processing

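With 2 libraries a group and FPKM in place of counts, depth limits TUBB2B labelled H1299 (39 to 50 estimated fragments) and TUBA4A labelled A549 (68 to 112). Tubulins that rose labelled H1299 numbered 4, and 3 to 4 over the 14 alternatives and over the libraries left out in turn. None fell under any of them. In the controls 8 of 9 were higher labelled A549, 7 to 8 over 13 alternatives, and 1 was lower in all. TUBB3 was the gene lost in each lower count, and TUBA4A and TUBB6 were each called with 1 library left out. With the replicate block 3 rose and 0 fell labelled H1299, and 8 and 1 differed between controls. Libraries with the same number did not vary together (correlations -0.037 to 0.063), so they share only a number. Leaving out libraries moved the A549-labelled log2 fold change of TUBA1A between -1.57 and -1.39, and turned the sign of TUBA4A (-0.29 to 0.16) and TUBB3 (-0.18 to 0.13). Over the alternatives, some of which test fewer genes or samples, the pathway counts ranged as follows. Labelled A549, 0 to 5 binding genes fell and 0 to 1 rose, 0 to 2 folding genes fell, and 0 to 1 of the other tubulins and of the autoregulation genes fell. Labelled H1299, 3 to 5 binding genes rose and 5 to 10 fell, 5 to 8 folding genes rose and 3 to 5 fell, 1 to 4 nucleation genes rose and 0 to 2 fell, 1 to 4 modification genes rose and 2 to 3 fell, 1 to 3 other tubulins rose and 0 to 1 fell, and 1 to 2 autoregulation genes fell. In the main run the other tubulins that rose include TUBB4A, which had to differ. Log2 fold changes of TUBB labelled H1299 stayed between 0.33 and 0.38. For TUBA1B they ran from 0.84 to 0.91 and for TUBB4B from 0.90 to 0.99, called throughout.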

Other observations

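Tubulin pseudogenes were not part of any comparison, and those named were chosen after their values were seen. TUBBP1, a pseudogene of TUBB, was at 0.473 and 13.2 FPKM in the 2 controls labelled A549 and at 10.4 and 0.298 FPKM in the treated libraries, where TUBB itself varied by far less (743 and 723, then 552 and 534 FPKM). Labelled H1299 it was at 3.52 and 2.69 FPKM in controls and 0.410 and 4.47 FPKM after treatment. TUBAP2 was at 15.7 and 13.6 FPKM in controls labelled A549 and 11.7 and 10.5 FPKM after treatment, and at 2.70 and 1.62 against 3.59 and 3.74 FPKM labelled H1299, in the same order between groups as TUBA1B. TUBBP2 stayed between 0.623 and 5.53 FPKM in all libraries. How reads were shared between these copies and their parent genes was not tested.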
